A study of Mus musculus with 6 samples.

Results

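The genes described here are 38 mouse genes that detect DNA damage or repair it, taken by name from a list and matched by symbol to the GENCODE vM21 annotation, which gave 36047 genes in these data. They fall into 11 genes of base excision and single-strand break repair, 1 of direct reversal, 8 of nucleotide excision, 1 of mismatch repair, 5 of crosslink repair and homologous recombination, 8 that sense or rejoin strand breaks, 3 of translesion synthesis and 1 of nucleotide supply. Their RNA was measured by polyA RNA-seq in MLE-12 cells, a single mouse lung epithelial line made with the SV40 large T antigen, wild type per the labels and grown in DME/F12 with 2% serum. In 3 libraries the cells had received PBS, and in 3 they had received the same volume of cigarette smoke extract (CSE) at 5% and an optical density of 2. Treatment began at 30% density and lasted 24 h. The labels describe the samples as MLE-12 while the extraction text speaks of lung tissue, and they do not tell separate cultures from repeat libraries, so the p-values cover only how far these libraries differ, possibly for technical reasons.

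A cell keeps several repair routes, each for a kind of lesion. In base excision repair a glycosylase removes an oxidised, deaminated or alkylated base, APEX1 cuts the backbone, DNA polymerase beta fills the gap and a ligase seals it, with XRCC1 as scaffold and PARP1 as sensor of the nick. Nucleotide excision repair cuts out a stretch of strand around bulky adducts such as those formed by polycyclic hydrocarbons of tobacco smoke, mismatch repair corrects replication errors, and the Fanconi and BRCA proteins resolve crosslinks and repair breaks by recombination. Breaks are otherwise rejoined by the Ku proteins and DNA-PKcs, signalled by the kinases ATM and ATR, and lesions left at a fork can be copied by translesion polymerases. Much of this work is controlled on the proteins (phosphorylation, ubiquitin and ADP-ribose marks), which RNA levels do not show. Large T antigen binds p53, the regulator through which damage raises part of the repair genes.

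Library totals lay between 12093009 and 24050167 estimated counts. Of the 8 epithelial marker genes examined, 6 had a mean of at least 1 TPM (a transcript level corrected for length and depth), among them the lung factor Nkx2-1, while Krt18 and Cldn4 lay under 1 TPM. Markers of other lung cells were low for endothelium (summed TPM 2.28 to 2.90 in PBS and 1.42 to 3.41 in CSE, Cdh5 at 0) and immune cells (3.23 to 6.38 and 3.01 to 5.46, Adgre1 at 0). In the fibroblast list 3 of 6 markers were at or over 1 TPM, and its sum of 869 to 1126 TPM in PBS against 478 to 544 TPM with CSE was mostly Dcn. By edgeR's test Dcn and Col1a1 fell (−0.83 and −0.60 on the log2 scale) and Pdgfra rose (0.84). Epithelial markers summed to 1300.3 to 1414 TPM in PBS and 720.1 to 813 TPM with CSE, so the groups differed in these levels. Their part in the results below was not tested.

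With smoke extract the RNA of these repair genes changed little, and about as much as that of tested genes in general. The median absolute log2 change was 0.149 for the members and 0.157 for all tested genes. Of the 37 members that passed the filter on low counts, 2 rose (Xrcc5 and Lig3), 1 fell (Polb) and 34 were not called by edgeR's quasi-likelihood test at an adjusted p under 0.05 (Benjamini-Hochberg over 13451 genes). That is 8.11% of the members, where 11.4% of all tested genes were called, 4.32% higher and 7.12% lower. Over all genes the split was 581 higher and 958 lower, which became 882 and 870 with correction for GC and length, and 189 and 599 with limma on log2(TPM + 1). Apart from Neil3, which is barely expressed, no fitted change reached 1.5-fold, and the fitted changes of the others ran from −0.29 to 0.35 on the log2 scale. For 34 of 37 members the 95% interval of the change lay inside 1.5-fold in either direction, a bound met by 65.7% of all tested genes, and by 83.4% of those with a mean of at least 5 CPM (counts scaled to depth) against 94.4% of the 36 members at that level. The 3 whose intervals reached further were Neil3, Atr and Prkdc. At a tighter bound of 1.25-fold, 12 members lay inside (32.4%, against 31.7% of all tested genes).

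**Figure D1:**
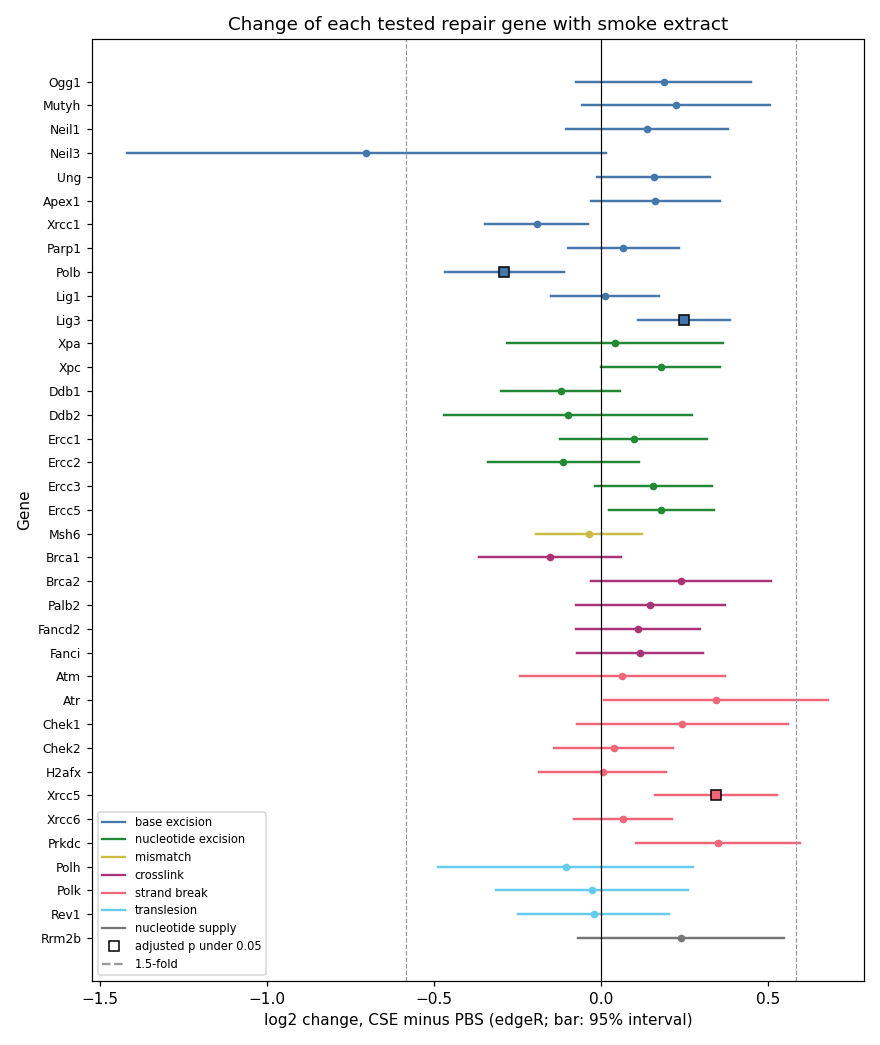
Log2 change (CSE minus PBS, edgeR, horizontal axis) of the 37 tested repair genes, one per line and coloured by repair route, with 95% intervals as bars; black-edged squares mark the 3 genes called at an adjusted p under 0.05, and dashed lines mark 1.5-fold. Nearly all bars lie between the dashed lines, and Neil3 has the widest.

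The small shifts leaned upward in edgeR's fit. The median log2 change of the 37 members was 0.10, with 26 fitted above 0 (70.3%) and 11 below, against a median of 0.01 and 50.9% above 0 over all tested genes. On the TPM scale fewer members were fitted above 0, and their lean beside all genes was not measured there. With limma on log2(TPM + 1), Parp1, Lig1, Xpa, Ercc1, Chek2, H2afx and Xrcc6 turned negative, and the median over all genes was −0.06. By group the median was 0.16 for strand break genes, where all 8 lay above 0 (on the TPM scale H2afx, Chek2 and Xrcc6 lay below), and 0.14 for base excision. It was 0.12 for crosslink repair, 0.07 for nucleotide excision and −0.03 for translesion polymerases, where all 3 lay below 0 (with 1 library left out, each lay above 0 at least once). The libraries of the groups did not overlap in scaled log2 counts for 11 members (29.7%), 8 higher and 3 lower in CSE, beside 31.2% of all tested genes. At an unadjusted p under 0.05, 8 members (6 higher, 2 lower) stood beside 26.0% of all tested genes.

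Steady levels differed far more between the members than between the treatments. In PBS, 5 members lay at or over 100 TPM: Ddb1 at 276 ± 29.7 TPM (SD, n = 3), Apex1 at 179 ± 7.25, Xrcc1 at 175 ± 16.2, Polb at 159 ± 11.9 and Lig1 at 105 ± 8.10. Ddb1, which binds damaged DNA with DDB2 and is also the adaptor of all CUL4 ubiquitin ligases, stood above the others, while among Apex1, Xrcc1 and Polb each differed from the next by less than the sum of their SDs. At the other end, 4 members lay under 5 TPM: DNA-PKcs (Prkdc) at 3.39 ± 0.581 TPM, the polymerase gene Polh at 2.76 ± 0.655, the glycosylase gene Neil3 at 0.606 ± 0.126 and Mgmt at 0.0667 ± 0.0269. The median member had 23.1 TPM in PBS, and the median tested gene 19.4.

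**Figure D2:**
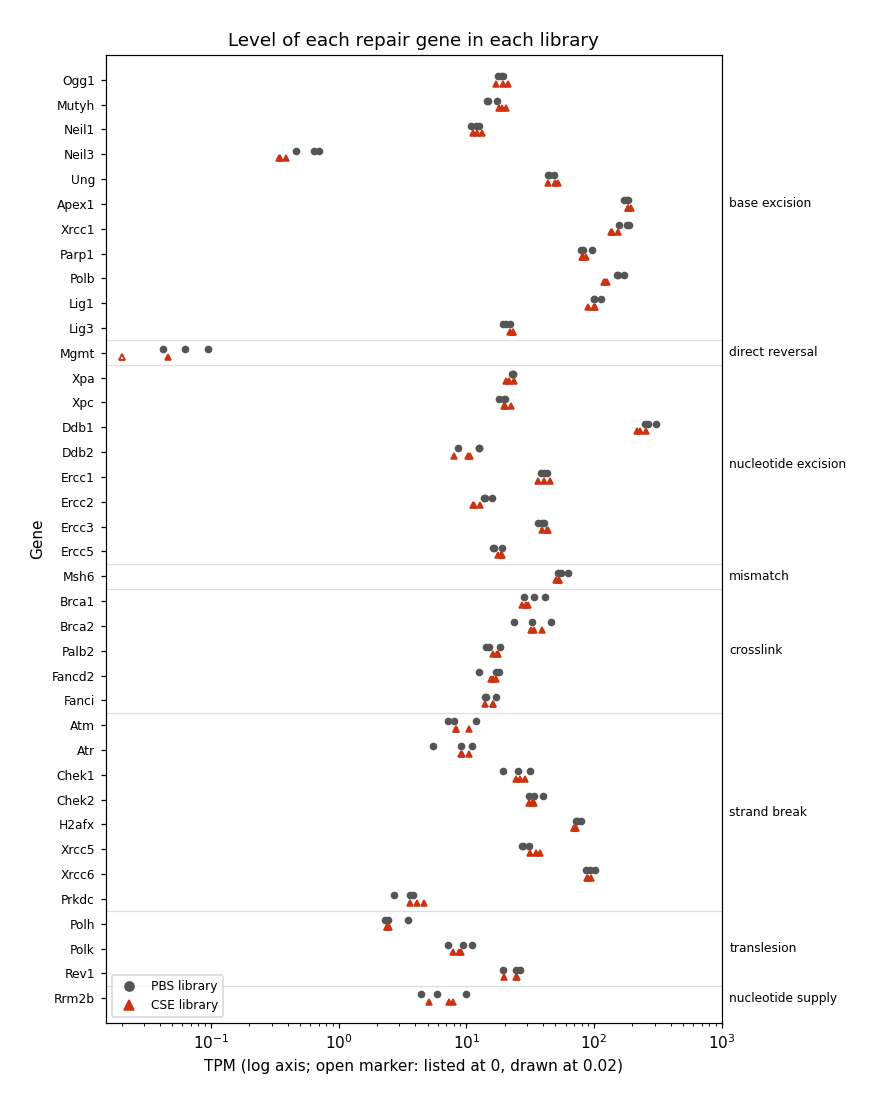
Level of each of the 38 genes in TPM (log axis) in the 3 PBS libraries (circles) and 3 CSE libraries (triangles), grouped by repair route; open markers stand for libraries listed at 0. Levels span from under 0.1 TPM for Mgmt to 276 TPM for Ddb1 in PBS, and the marks of the treatments lie close together for most genes.

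Promoter sequences are shown for the Ku subunits, of which 1 was called and the other was not, for Lig3, the other gene that rose, and for Brca2, which holds matches to both a cell cycle and a stress motif. They are the 250 bases before the RefSeq start (GRCm38.p6), read 5′ to 3′ on the gene's strand. Capitals mark, on either strand, the core bound by AhR (GCGTG), the core bound by NRF2 (TGACNNNGC) and 4 forms of the E2F site (TTTGGCGC, TTTCCCGC, TTTCGCGC, TTTGCCGC). The windows lie at chr1:72307171-72307420 for Xrcc5, chr15:82016119-82016368 for Xrcc6, chr11:82780859-82781108 for Lig3 and chr5:150522371-150522620 for Brca2, all on the plus strand.
Xrcc5: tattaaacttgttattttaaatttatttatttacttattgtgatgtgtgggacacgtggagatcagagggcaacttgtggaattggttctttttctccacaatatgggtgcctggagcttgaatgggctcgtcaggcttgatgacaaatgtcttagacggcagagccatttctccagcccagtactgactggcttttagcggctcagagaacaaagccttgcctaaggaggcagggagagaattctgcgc
Xrcc6: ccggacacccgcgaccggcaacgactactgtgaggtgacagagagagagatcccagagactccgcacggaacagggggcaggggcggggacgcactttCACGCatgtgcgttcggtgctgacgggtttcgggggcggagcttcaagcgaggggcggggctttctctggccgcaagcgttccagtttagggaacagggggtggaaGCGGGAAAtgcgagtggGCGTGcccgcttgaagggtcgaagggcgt
Lig3: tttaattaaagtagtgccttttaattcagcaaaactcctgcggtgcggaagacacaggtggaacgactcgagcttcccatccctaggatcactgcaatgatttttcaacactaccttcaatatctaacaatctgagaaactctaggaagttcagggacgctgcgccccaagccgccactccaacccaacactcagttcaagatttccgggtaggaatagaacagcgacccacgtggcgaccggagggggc
Brca2: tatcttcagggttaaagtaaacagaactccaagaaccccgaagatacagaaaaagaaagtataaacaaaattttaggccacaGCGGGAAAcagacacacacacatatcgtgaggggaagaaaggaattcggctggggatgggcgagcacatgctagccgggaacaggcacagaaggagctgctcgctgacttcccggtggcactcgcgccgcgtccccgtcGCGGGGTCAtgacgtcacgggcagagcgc

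The windows of Xrcc5 and Lig3 held none of these letters, and that of Xrcc6 held the AhR core at 2 places and an E2F form at 1. Among 35 windows of 30 members found in the RefSeq table, 20 (57.1%) held the AhR core, 4 (11.4%) the NRF2 core and 3 (8.57%) an E2F form, against 28.2%, 10.2% and 1.86% of 32851 windows of all genes. The member windows were richer in G and C (median 55.6%, against 52.4%). Among windows with at least 50% G and C, the AhR core was in 61.3% of 31 member windows and 40.5% of 19344 windows of all genes. Hits of different motifs overlapped in 0 member windows. These are matches of letters and say nothing of binding.

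In base excision repair 1 of 11 genes rose, 1 fell and 9 were not called (18.2% called, beside 11.4% of all tested genes). DNA polymerase beta, Polb, which fills the gap left by the removed base, is on chromosome 8 (22628126 to 22653435, GRCm38, minus strand). It had 151, 173 and 154 TPM with PBS and 123, 121 and 127 TPM with CSE. All 3 CSE libraries were below all 3 PBS libraries. Polb fell by 0.29 ± 0.08 on the log2 scale of edgeR's fit (SE; 95% interval −0.47 to −0.11, edgeR adjusted p = 0.0439). In TPM, nearly all of the fall came from its only coding transcript, of 1201 bases (152 ± 9.95 TPM in PBS, 118 ± 3.07 TPM with CSE). That transcript held on average 95.3% of the gene's TPM in PBS, but 86.3% of its estimated counts. This call sat at the threshold. It was lost without any 1 of the 6 libraries (adjusted p from 0.0502 without CSE replicate 3 to 0.193 without CSE replicate 2), with an offset for effective transcript length (0.0619) and on the TPM scale (0.0645 with log2(TPM + 1), limma), within a range of 0.00391 to 0.193 over the 18 alternatives.

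DNA ligase III, Lig3, which seals the same gap together with XRCC1 and also serves mitochondria (chromosome 11, 82781108 to 82804274), had 19.4, 20.6 and 21.9 TPM in the PBS libraries and 23.2, 23.1 and 22.2 TPM with CSE. The CSE libraries were all higher, by a small margin. In counts scaled to depth it had 71.3, 70.6 and 70.4 CPM in PBS and 83.5, 83.6 and 85.2 CPM in CSE, with no overlap and little spread. Lig3 rose by 0.25 ± 0.06 (SE; 0.11 to 0.39, edgeR adjusted p = 0.0257). Its coding transcripts of 5957 and 5797 bases changed shares between libraries, but their sum was 18.5 ± 0.779 TPM in PBS and 20.8 ± 0.705 TPM with CSE. The call was lost without PBS replicate 3 or any 1 CSE library (adjusted p 0.082 to 0.114), with the length offset (0.0765) and on the TPM scale (0.14 on log2(TPM + 1), adjusted p = 0.4 in limma), in a range of 0.00808 to 0.4, and 30.3% of its 31-base words also occur in Rffl, which lies on the opposite strand, so part of its counts is uncertain.

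Their scaffold Xrcc1 stood at 157, 182 and 187 TPM in PBS and 137, 154 and 139.5 TPM with CSE. The groups lay apart, with the CSE libraries lower, but the fitted change of −0.19 ± 0.07 was not called (edgeR adjusted p = 0.108; 0.0618 to 0.335 over the alternatives). A short non-coding transcript of 487 bases took a large part of this level, and the coding transcripts held 44.4 ± 1.03% of the gene's TPM in PBS and 45.1 ± 7.54% in CSE. Of its estimated counts they held on average 82.8% in PBS and 82.9% in CSE. The nick sensor Parp1 (86.3 ± 9.14 and 83.5 ± 2.62 TPM) and the replicative ligase Lig1 (105 ± 8.10 and 97.1 ± 6.43 TPM) had fitted changes of 0.07 ± 0.08 and 0.01 ± 0.07, which turned negative on the TPM scale.

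**Figure D3:**
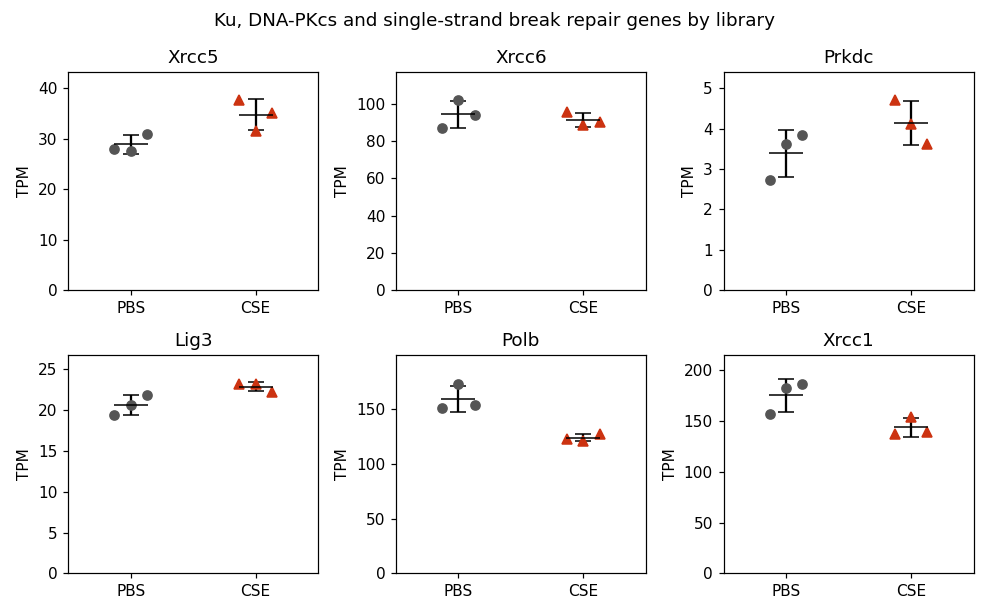
TPM of 6 genes in each library (circles PBS, triangles CSE; bars are the mean ± SD of 3 libraries; axes start at 0). Xrcc5 and Lig3 lie higher and Polb lower in CSE, whereas Xrcc6 overlaps between the groups.

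The glycosylases, which choose the base to be removed, were not called. Ogg1, which excises 8-oxoguanine, a common oxidised base, averaged 18.7 ± 0.84 TPM under PBS and 19.3 ± 2.08 TPM under CSE, a change of 0.19 ± 0.12 whose interval of −0.07 to 0.45 left out 1.5-fold. Mutyh, which removes adenine placed opposite 8-oxoguanine, had 15.5 ± 1.49 and 19.2 ± 1.13 TPM, with a change of 0.22 ± 0.13 (edgeR adjusted p = 0.3). A retained-intron transcript of 689 bases differed by about as much as the whole gene, with 4.45, 3.97 and 3.73 TPM in PBS and 8.74, 7.39 and 7.98 TPM with CSE, while the share of its TPM on coding transcripts was 42.3 ± 13.1% and 39.2 ± 3.53%. Neil1, which acts on oxidised pyrimidines, changed by 0.14 ± 0.11 and the uracil glycosylase Ung by 0.16 ± 0.08. Neil3, a relative of Neil1 active in dividing cells, had 53 counts in the PBS libraries together and 33 in the CSE libraries, and 0.46, 0.65 and 0.71 TPM against 0.39, 0.35 and 0.34. The CSE libraries lay below, and the change of −0.70 ± 0.32 had an interval of −1.42 to 0.01 and was not called (edgeR adjusted p = 0.202). Most of these counts were on a retained-intron transcript (9.12, 16.2 and 15.7 in PBS, 7.36, 10.5 and 5.84 in CSE). The coding transcript had 2, 4 and 6 counts in PBS and 1, 4 and 4 in CSE. The endonuclease Apex1 changed by 0.16 ± 0.09, but 69.6% of its words are shared, mostly with the opposite-strand gene Pip4p1.

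Mgmt, which removes alkyl groups from guanine without cutting the strand, was close to undetected and did not pass the filter. Its PBS libraries held 6 counts in total and its CSE libraries 2, which corrected for depth is 0.321 times the PBS level (95% interval 0.0317 to 1.79, conditional exact binomial, counting error only). No difference could be detected from so few counts (exact two-sided permutation p = 0.2, the smallest possible being 0.1).

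Nucleotide excision repair genes were not called. Of 8 tested, edgeR called 0, as did DESeq2 and limma-voom, and 2 had an unadjusted p under 0.05, beside 26.0% of all tested genes. These were the endonuclease gene Ercc5, with 16.2, 16.6 and 19.0 TPM in PBS and 18.6, 19.1 and 17.6 TPM with CSE, and the lesion sensor Xpc, with 19.9, 18.0 and 20.1 against 22.4, 19.99 and 19.9 TPM. In TPM the groups overlapped for both. Their fitted changes were 0.18 ± 0.07 for Ercc5 (edgeR adjusted p = 0.133) and 0.18 ± 0.08 for Xpc (0.188). The ultraviolet damage sensor subunits differed by −0.12 ± 0.08 for Ddb1 and −0.10 ± 0.17 for Ddb2, and 24.4% of the words of Ddb2 occur in Acp2 on the opposite strand. The damage verifier Xpa changed by 0.04 ± 0.15, the helicase genes Ercc3 and Ercc2 of the TFIIH complex by 0.16 ± 0.08 and −0.11 ± 0.10, and Ercc1, a subunit of the other endonuclease, by 0.10 ± 0.10.

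Ercc2, which encodes the XPD helicase, was the 1 of 32 members with more than 1 transcript type whose share of TPM on coding transcripts did not overlap between the groups. Its coding transcripts held 93.1%, 91.4% and 90.3% of its TPM in PBS and 95.8%, 96.6% and 100% in CSE. The difference was at the smallest two-sided exact permutation p that the design allows (0.1). Such a lack of overlap was found for 9.91% of 9336 genes, and 37.6% of the words of Ercc2 occur in other genes, chiefly Klc3. With shares taken from estimated counts, Ercc2 averaged 98.1% in PBS and 99.7% in CSE, and Ddb1 lay apart as well, to make 2 genes. The non-coding part of Ercc2 rested on few counts. A retained-intron transcript of 994 bases had 6.74, 3.56 and 7.01 estimated counts in PBS and 0, 0 and 0 in CSE. Another, of 485 bases, had 0, 3.00 and 2.04 in PBS and 1.04, 2.00 and 0 in CSE. Of 100 member transcripts at or over 1 TPM on average, 15 did not overlap between the groups, beside 18.8% of all such transcripts.

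**Figure D4:**
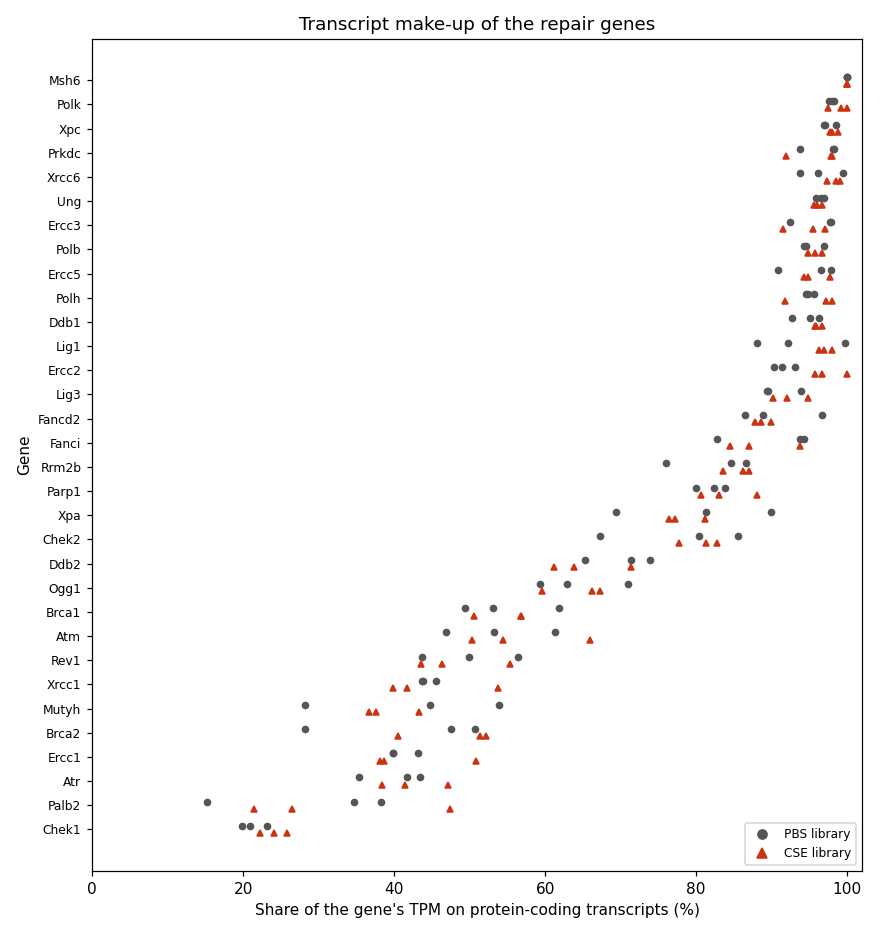
Share of each gene's TPM on transcripts annotated as protein-coding (%), for the 32 members with more than 1 transcript type, in PBS (circles) and CSE (triangles) libraries. Chek1 and Palb2 have the lowest shares in PBS, and Ercc2 is the gene whose circles and triangles do not overlap.

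Msh6, which recognises mismatched bases and stands here for mismatch repair, had 55.7, 52.2 and 62.7 TPM in PBS and 53.6, 53.04 and 50.7 TPM with CSE. The libraries overlapped, and the change of −0.03 ± 0.07 had an interval of −0.19 to 0.12 (edgeR adjusted p = 0.808).

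Crosslink repair and recombination genes were not called either (edgeR, DESeq2 and limma-voom each 0 of 5, and 0 at an unadjusted p under 0.05). Brca2, which acts in repair by recombination and had the smallest p of the group, had 23.6, 46.2 and 32.9 TPM in PBS and 39.4, 31.9 and 34.1 TPM with CSE. The PBS libraries alone spanned more than the CSE libraries did. Its change was 0.24 ± 0.12 with an interval of −0.03 to 0.51 (edgeR adjusted p = 0.243; 0.0285 to 0.883 over the alternatives). The coding transcript of 10517 bases was higher in each CSE library (11.7, 9.37 and 8.89 TPM) than in each PBS library (6.51, 7.14 and 7.21 TPM), but its near copy of 10724 bases went the other way, and their sum was 9.19 ± 1.86 TPM in PBS and 10.04 ± 1.59 TPM with CSE. Brca1, the partner that starts this pathway, had 34.4 ± 6.51 TPM in PBS and 29.1 ± 1.67 TPM with CSE (−0.15 ± 0.10), and was called lower without PBS replicate 1 (−0.25, edgeR adjusted p = 0.0478; 0.0478 to 0.629 over the alternatives). Palb2, which joins the BRCA proteins, changed by 0.15 ± 0.10, and Fancd2 and Fanci, the clamp that is ubiquitinated at a crosslink, by 0.11 ± 0.08 and 0.12 ± 0.09.

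Among genes of strand breaks, Xrcc5 rose. It encodes Ku80, which with Ku70 forms the ring that binds broken ends before they are joined (chromosome 1, 72307421 to 72394952). Xrcc5 had 27.9, 27.6 and 30.99 TPM in the PBS libraries and 37.6, 31.5 and 35.0 TPM with CSE. Each CSE library was above each PBS library, the lowest by a small margin. The rise was 0.35 ± 0.08 (SE; 0.16 to 0.53, edgeR adjusted p = 0.021). It rested on 2209 counts for PBS against 2845 for CSE, with 1 annotated transcript and 0% of its words shared. It was no longer called without PBS replicate 3 (adjusted p = 0.0593), CSE replicate 1 (0.0841) or CSE replicate 3 (0.102) and on the TPM scale (0.26 on log2(TPM + 1), adjusted p = 0.208 in limma), in a range of 0.0038 to 0.218, and its direction was the same in all 18 alternatives.

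The partners of Xrcc5 were not called. Xrcc6, which encodes Ku70, had 86.9, 101.7 and 93.8 TPM in PBS and 95.4, 88.2 and 90.2 TPM with CSE. The groups overlapped, and its change was 0.07 ± 0.07 with an interval of −0.08 to 0.21 (edgeR adjusted p = 0.578), with a negative sign on the TPM scale and with correction for GC and length. Prkdc, the kinase DNA-PKcs that Ku recruits, had 2.73, 3.61 and 3.83 TPM in PBS and 4.70, 4.12 and 3.61 TPM with CSE. The groups overlapped in TPM, since CSE replicate 3 lay below PBS replicate 3, and did not overlap in scaled counts. Its change of 0.35 ± 0.11 matched that of Xrcc5 in size with a wider interval of 0.10 to 0.60, and it missed the threshold (edgeR adjusted p = 0.0703). It passed with DESeq2 (0.0499), with no filter on low counts (0.0105), without PBS replicate 2 (0.0499) and with correction for GC and length (0.005), in a range of 0.005 to 0.384. Whether the change of Xrcc5 differs from that of Xrcc6 was not tested.

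The damage kinases were not called. Atr, which answers to stalled forks, had 5.46, 11.0 and 9.07 TPM in PBS and 10.4, 9.21 and 9.10 TPM with CSE. In TPM, PBS replicate 1 was the lowest and PBS replicate 2 the highest of the 6, so the CSE values lay within the PBS range. In scaled counts each CSE library (27.6, 26.26 and 29.8 CPM) lay above each PBS library (15.9, 26.22 and 23.2 CPM), the closest by a small margin. Its change was 0.35 ± 0.15 (0.01 to 0.68, edgeR adjusted p = 0.182), and it was called with no filter on low counts (0.019) and with correction for GC and length (0.0438), in a range of 0.019 to 0.673. Its effector kinase Chek1 changed by 0.24 ± 0.14 (edgeR adjusted p = 0.315) and was called without PBS replicate 2 (0.42, adjusted p = 0.0442; 0.0442 to 0.802 over the alternatives). Atm, which answers to double-strand breaks, changed by 0.06 ± 0.14, its effector Chek2 by 0.04 ± 0.08 and the histone gene H2afx, whose protein marks breaks when phosphorylated, by 0.01 ± 0.09, each with an interval inside 1.5-fold. The sign of H2afx turned with scaling by library size (−0.01) and on the TPM scale (−0.08).

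No change was detected in the translesion polymerases, which copy past lesions, and their intervals lay inside 1.5-fold in either direction. Of 3 tested, edgeR, DESeq2 and limma-voom called 0, and 0 had an unadjusted p under 0.05. Polh, which copies past ultraviolet dimers, had the smallest p, with 2.33, 2.43 and 3.51 TPM in PBS and 2.40, 2.48 and 2.38 TPM with CSE. PBS replicate 3 was the highest and the other libraries were alike. Its change was −0.11 ± 0.17 (−0.49 to 0.28, edgeR adjusted p = 0.752). Polk, which copies past bulky adducts, changed by −0.03 ± 0.13 and the scaffold polymerase Rev1 by −0.02 ± 0.10. Of the words of Rev1, 26.1% occur in other genes, chiefly Eif5b on the opposite strand.

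Rrm2b encodes the p53-regulated subunit of ribonucleotide reductase, which supplies nucleotides for repair outside S phase. It had 5.90, 4.45 and 9.94 TPM in PBS and 7.39, 5.10 and 7.89 TPM with CSE. In TPM the CSE libraries lay within the PBS range. In scaled counts CSE replicate 1 (17.7 CPM) lay above each PBS library (11.6, 11.7 and 14.3 CPM). CSE replicates 2 and 3 (13.1 and 14.2 CPM) lay within the PBS range. Its change was 0.24 ± 0.14 with an interval of −0.07 to 0.55 (edgeR adjusted p = 0.312). Ddb2 and Xpc were not called either. In a list of p53 targets from outside repair, 6 of 20 tested genes rose and 1 fell (35.0%, beside 11.4% of all tested genes). Among them were Plk2 (1.02 ± 0.09), Fas (0.88 ± 0.11) and Cdkn1a (0.40 ± 0.07) higher and Perp lower (−0.89). Whether the repair genes and these targets differ was not tested.

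A wider list of 130 other repair genes also held few calls. DESeq2 and limma-voom each called 3 of them higher and 0 lower. At an unadjusted p under 0.05 in edgeR's test, 22 were higher and 2 lower, beside 26.0% of all tested genes. After adjustment edgeR called 2 of the 130 higher and 0 lower (1.54%, beside 11.4% of all tested genes), with a median of 0.05. The 2 were Timeless, a fork protection protein, with 45.1, 45.1 and 56.7 TPM in PBS and 59.5, 55.4 and 49.4 TPM under CSE (0.27 ± 0.07, edgeR adjusted p = 0.0325), and Primpol, which restarts synthesis beyond a lesion, with 6.61, 8.07 and 8.39 TPM in PBS and 11.1, 9.78 and 9.69 TPM under CSE (0.37 ± 0.10, edgeR adjusted p = 0.0345). The TPM of Timeless overlapped between groups and that of Primpol did not. By route, edgeR called 0 of 24 base excision, 0 of 22 nucleotide excision, 0 of 7 mismatch and 0 of 30 crosslink genes, 1 of 25 strand break and 1 of 13 translesion genes, 0 of 2 direct reversal and 0 of 7 nucleotide supply genes. Unadjusted p-values under 0.05 in the routes with no call numbered 3, 7, 0 and 3, then 1 and 3, beside 26.0% of all tested genes. The other tools called in these routes 1 base excision gene (limma-voom) and 1 nucleotide supply gene (DESeq2).

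Many repair genes follow the cell cycle, and cycle genes were measured beside them. Of 23 S phase genes, Ccne1 rose (0.48 ± 0.09) and E2f2 fell (−0.37 ± 0.10), which is 8.7%, beside 11.4% of all tested genes. The median of this list was 0.04 and the summed level was 3058 to 3182 TPM with PBS and 2934 to 3185 TPM with CSE. Of 14 mitosis genes, edgeR, DESeq2 and limma-voom called 0, with 0 at an unadjusted p under 0.05, a median of 0.01, and sums of 2427 to 2562 and 2414 to 2500.0 TPM. In bulk RNA, fewer cells in a phase and less RNA per cell cannot be told apart.

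The members varied more among the PBS than among the CSE libraries. The coefficient of variation of TPM had a median of 9.60% in PBS and 6.91% in CSE over the tested members, against 11.8% and 8.93% over all tested genes. PBS replicate 1 was the lowest of the 6 libraries for 15 members (40.5%, beside 23.5% of all tested genes) and PBS replicate 2 the highest for 14 (37.8%, beside 26.3%). Brca2, Atr, Atm, Chek1, Chek2, Fanci, Polk, Rev1 and Xrcc6 were in both sets. In PBS replicate 2 transcripts with a retained intron held 6.57% of all TPM, the highest share of the 6 libraries, against 5.67% in PBS replicate 1, 6.004% in PBS replicate 3 and 5.55% to 5.82% in CSE, and the part of this in the spread was not tested. For 10 of the 32 members the coding transcripts held under 60% of the gene's TPM in PBS, down to 21.3 ± 1.74% for Chek1, whose largest estimate was a processed transcript. Gene levels in TPM thus include much estimated non-coding RNA, and a short transcript weighs more in TPM than in counts. In estimated counts the mean coding share in PBS stayed under 60% for Chek1 (32.0%), Palb2 (47.5%) and Mutyh (48.5%). It ran from 66.8% for Ercc1 to 97.7% for Atm among the rest (Ercc1, Rev1, Atr, Xrcc1, Brca2, Brca1 and Atm).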

How the data were processed

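The authors deposited, for each of 6 polyA RNA-seq libraries, a table of 118489 transcripts with estimated counts and TPM, per the file headers, in the kallisto layout. A TPM is an estimated count divided by effective length, scaled by the authors to 1 fixed total per library. Tools listed in the submitters' processing notes, without roles, are FastQC 0.12.1, fastp 0.20.1, kallisto 0.46.2 and DESeq2 1.40.2, with GRCm38 as build. Not given in the sources used here are the index and strand setting. As kallisto shares ambiguous reads by a model, overlapping or similar genes and isoforms can lend counts to each other.

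Transcripts were matched by identifier to GENCODE vM21 (116816, 98.6%; the rest held 0.638% to 0.664% of counts) and summed per gene, with counts rounded. Genes were filtered with filterByExpr (minimum count 10), scaled by TMM and tested by edgeR 4.0.16's two-sided quasi-likelihood test, treatment as the only factor, with a threshold of 0.05. The procedure was tested on simulated counts. The members and the lists were chosen with earlier results of these data known. Values in every library were given by rule for each called member and, in a group with none, the member of smallest p; other members with library values, and genes named for a call under an alternative, were chosen after their values were seen. Named from other lists were the called genes, up to 3 of smallest p. The p53 list was an exception, where Perp, the 1 gene called lower, was named beside 3 called higher. Shared sequence was counted as 31-base words of the most abundant transcript. Within groups, chi-square per degree of freedom between libraries was 5.61 to 17.6, so none was a duplicate. A count of 3 corresponds to 0.126 to 0.250 CPM. Alternatives were other scalings and filters, DESeq2 1.42.0, limma 3.58.1 (voom, and log2(TPM + 0.1) or log2(TPM + 1) where genes averaged 1 TPM or more), a length offset, removal of a GC and length trend (loess, span 0.5), a replicate block and leaving out each library. The software also included R 4.3.3 and Python 3.11.15.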

Additional observations from a re-analysis of the deposited data

How the results depend on the processing

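Over the 18 alternatives, 582 of 663 refitted changes of single members kept their direction and their side of the threshold, 23 (all of Xrcc5, Lig3 or Polb) were no longer called, 11 became called and 47 changed sign, none of a called gene. In place of 2 members higher and 1 lower, the count was 4 higher with no filter on low counts, 6 higher with correction for GC and length (Atr, Brca2, Lig3, Prkdc, Xpc and Xrcc5), 1 higher and 0 lower with the effective length offset, and 0 and 0 with limma on log2(TPM + 1) or log2(TPM + 0.1). With 1 library left out, 0 to 4 members were higher (0 without either of CSE replicates 1 and 3 or without PBS replicate 3, 1 without CSE replicate 2, 4 without PBS replicate 2) and 0 to 1 lower (0 without any library but PBS replicate 1, where Brca1 was called). The cause was not tested.

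Libraries of the same number did not deviate together (correlations −0.12, 0.01 and −0.06), so the numbers were not taken as pairs. With the replicate block, 1 member was higher (Xrcc5) and 0 lower (edgeR adjusted p = 0.0904 for Lig3 and 0.108 for Polb), and 1022 genes in all were called instead of 1539. With the replicate block and that correction, 3 were higher and 1 lower.

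Sign changes, on the log2 scale, were as follows. Limma on log2(TPM + 1) gave Parp1 −0.043, Lig1 −0.11, Xpa −0.073, Ercc1 −0.0058, Chek2 −0.082, H2afx −0.083 and Xrcc6 −0.042, and log2(TPM + 0.1) gave −0.043, −0.11, −0.076, −0.0060, −0.084, −0.084 and −0.043 in that order. The length offset gave Lig1 −0.027, Chek2 −0.0068, H2afx −0.0025 and Rev1 0.063. H2afx was −0.0071 with library size scaling and −0.0036 with a minimum mean of 5 CPM. Correction for GC and length gave Xpa −0.030, Ercc2 0.045, Msh6 0.0057 and Xrcc6 −0.0078, and the replicate block besides gave Xpa −0.030, Ercc2 0.044, Msh6 0.0070, Xrcc6 −0.0080 and Rev1 0.0025. With 1 library left out, values ran from −0.032 to 0.072 for Lig1, −0.079 to 0.14 for Xpa, −0.23 to 0.054 for Ddb2, −0.035 to 0.20 for Atm, −0.0098 to 0.076 for Chek2, −0.042 to 0.094 for H2afx, −0.20 to 0.068 for Polh, −0.12 to 0.14 for Polk and −0.083 to 0.091 for Rev1. Over all genes the calls numbered 581 higher and 958 lower, and ranged from 164 higher and 508 lower (log2(TPM + 0.1), limma) to 1052 and 1145 with no filter on low counts. Without PBS replicate 3 they numbered 963, and 837 to 1037 with any CSE library left out, and 788 and 672 with limma on log2(TPM + 1) and log2(TPM + 0.1).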
